A study of Arabidopsis thaliana with 6 samples.

Results

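Pericentromeric genes are the genes that lie in the chromatin flanking the centromeres. They were taken as every gene of the deposited count tables whose smallest start fell in 1 window per chromosome, from 13 to 17 Mb on chromosome 1, 2 to 6 Mb on chromosome 2, 12 to 16 Mb on chromosome 3, 2.5 to 6 Mb on chromosome 4 and 10 to 14 Mb on chromosome 5. The windows held 1852 of the 33489 genes, and the other 31637 are called arm genes. Members were taken by position, with no cut on their expression values, though earlier results of these data were known when they were chosen.

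Transcripts of whole Arabidopsis thaliana seedlings were measured by sequencing of polyadenylated RNA after 14 days of growth in a petri dish. There were 3 samples of the double mutant line zdp-1 ape2-2, labelled as a knockout of ZDP and APE2, and 3 of the wild type Col-0, with replicates A, B and C in each group. ZDP is a DNA 3' phosphatase and APE2 an endonuclease of the apurinic/apyrimidinic family, and both clean up DNA ends during base excision repair and active DNA demethylation. The comparison asks how transcript levels of the double mutant differ from Col-0.

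Pericentromeric chromatin of Arabidopsis is mostly heterochromatin, dense in transposons and repeats and carrying DNA methylation in all sequence contexts together with repressive histone methylation. MET1, CMT3, CMT2 and the RNA-directed pathway through DRM2 add the DNA methylation, DDM1 opens the chromatin to these enzymes, and ROS1 removes methylated cytosine, after which ZDP processes the gap. Genes inside such chromatin are sparse, and many are silent or copied elsewhere in the genome.

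The start regions of the 4 higher and 2 lower members with the largest changes among genes above a mean of 1 CPM (the normalised count) are shown because their letters differ in content of CG dinucleotides, the sites that MET1 methylates. Each line runs 5′ to 3′ along the strand of the gene, from 250 bases before the annotated start to 50 bases after it, read from the RefSeq TAIR10.1 genome. Capitals mark CG dinucleotides and matches to CTT and AAG with any 7 bases between them, the letters bound by SOG1, a transcription factor that responds to DNA damage in plants.
AT3G41762, chr3:14196816-14197115, minus strand: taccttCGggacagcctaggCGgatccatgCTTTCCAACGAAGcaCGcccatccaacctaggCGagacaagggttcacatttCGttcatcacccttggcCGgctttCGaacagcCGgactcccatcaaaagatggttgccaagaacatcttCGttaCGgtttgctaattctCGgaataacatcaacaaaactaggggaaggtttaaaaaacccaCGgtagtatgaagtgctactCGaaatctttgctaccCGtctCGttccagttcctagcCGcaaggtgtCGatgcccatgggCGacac
AT2G05914, chr2:2264494-2264793, minus strand: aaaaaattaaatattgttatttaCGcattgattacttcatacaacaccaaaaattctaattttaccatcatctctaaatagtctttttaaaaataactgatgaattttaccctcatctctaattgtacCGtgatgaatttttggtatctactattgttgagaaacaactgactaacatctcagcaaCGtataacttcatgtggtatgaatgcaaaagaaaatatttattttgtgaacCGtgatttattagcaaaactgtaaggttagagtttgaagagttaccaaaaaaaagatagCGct
AT2G06002, chr2:2330526-2330825, plus strand: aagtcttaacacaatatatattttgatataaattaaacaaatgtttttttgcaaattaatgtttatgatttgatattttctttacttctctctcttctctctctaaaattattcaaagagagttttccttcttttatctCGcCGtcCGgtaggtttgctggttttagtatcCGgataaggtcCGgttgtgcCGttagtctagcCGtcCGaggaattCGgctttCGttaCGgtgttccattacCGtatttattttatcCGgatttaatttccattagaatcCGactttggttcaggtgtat
AT1G43605, chr1:16417879-16418178, minus strand: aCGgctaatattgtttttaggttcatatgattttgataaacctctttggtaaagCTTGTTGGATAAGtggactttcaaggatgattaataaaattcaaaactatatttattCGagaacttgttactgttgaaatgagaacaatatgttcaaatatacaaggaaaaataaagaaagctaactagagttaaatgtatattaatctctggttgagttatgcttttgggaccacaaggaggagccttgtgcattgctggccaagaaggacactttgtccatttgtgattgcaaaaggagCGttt
QQS (AT3G30720), chr3:12348797-12349096, plus strand: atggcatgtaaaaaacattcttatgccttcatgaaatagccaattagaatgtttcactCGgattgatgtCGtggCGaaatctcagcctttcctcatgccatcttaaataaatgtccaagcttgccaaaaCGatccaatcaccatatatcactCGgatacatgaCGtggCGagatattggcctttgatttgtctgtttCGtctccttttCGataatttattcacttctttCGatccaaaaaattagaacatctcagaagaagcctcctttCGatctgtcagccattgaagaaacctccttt
MGDC (AT2G11810), chr2:4742912-4743211, plus strand: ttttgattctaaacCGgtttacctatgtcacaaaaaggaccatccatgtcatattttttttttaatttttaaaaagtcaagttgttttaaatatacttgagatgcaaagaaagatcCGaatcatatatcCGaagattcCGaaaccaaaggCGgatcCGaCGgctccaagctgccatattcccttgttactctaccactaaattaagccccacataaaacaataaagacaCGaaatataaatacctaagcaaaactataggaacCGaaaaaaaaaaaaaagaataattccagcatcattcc
The window of AT3G41762 held 19 CG dinucleotides, against 3 in that of AT1G43605, and each of these windows held 1 match to the SOG1 letters. The windows of AT2G05914, AT2G06002, QQS and MGDC held 5, 14, 11 and 9 CG dinucleotides and no match. Over all windows of 300 bases, the mean was 7.06 CG dinucleotides for pericentromeric genes and 6.68 for arm genes. Among tested genes alone the order was reversed, with 6.56 for pericentromeric and 6.84 for arm genes. The SOG1 letters, which read the same on both strands, were in 11.7% of the windows of pericentromeric genes and in 11.7% of those of all genes. They were in 15 of the 117 windows of members higher in the mutant (12.8%), 4 of the 22 higher by at least 2-fold (18.2%) and 6 of the 145 lower (4.14%), against 9.96% over all tested members. A match is a description of the letters, and binding was not measured.

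The targeted genes lie on chromosome arms and were lower in the mutant but still counted. ZDP (AT3G14890) had 18.5, 18.9 and 16.2 CPM (counts scaled to a common library size with TMM) in zdp-1 ape2-2, against 30.2, 27.8 and 30.1 CPM in Col-0, a log2 fold change of -0.71 ± 0.05 (SE; edgeR adjusted p = 4.89e-15). APE2 (AT4G36050) had 5.66, 5.71 and 5.89 CPM in zdp-1 ape2-2, against 7.20, 8.83 and 8.52 CPM in Col-0, a log2 fold change of -0.51 ± 0.08 (edgeR adjusted p = 2.65e-06). The groups did not overlap for either gene, the positions of the alleles within the genes are not given in the labels, and 33.6% of the exon bases of APE2 lie under a neighbouring gene. Library totals ran from 37154781 to 37241739 counts in zdp-1 ape2-2 and from 31190605 to 37222185 in Col-0. Marker genes of green shoot and root were abundant in every library, as the label of whole seedlings says. The summed level of 3 floral markers (AG, SEP3 and AP3) was 20.3 to 21.1 CPM in zdp-1 ape2-2 and 9.21 to 9.77 CPM in Col-0. That of 2 seed storage genes (CRA1 and CRU3) was 4.89 to 5.30 CPM in zdp-1 ape2-2 and 0.0656 to 0.111 CPM in Col-0, and all 5 genes were called higher. The 3 shoot and 3 root markers were all called lower, with shoot sums of 20953 to 21617 CPM in zdp-1 ape2-2 and 25672 to 26263 CPM in Col-0. In whole seedlings, fewer cells of a type and less RNA per cell cannot be told apart, and the part of tissue make-up in the changes below was not tested.

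The windows span 19.5 Mb, 16.4% of the chromosomes, and are thinly populated. They held 95 genes per Mb, against 317 on the arms, and 28.3 genes per Mb with enough counts for a test, against 207 on the arms. By class, 1244 members were protein-coding, 263 long non-coding RNAs and 251 transcribed pseudogenes. No count was recorded in any of the 6 libraries for 870 members (47.0%), against 6076 arm genes (19.2%). Of the 1852 members, 552 passed the filter on low counts and were tested in a fit over all 21182 tested genes, 430 had counts but were not tested, and the rest were at 0.

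Among the tested members, 117 were higher and 145 lower in zdp-1 ape2-2 than in Col-0, at an adjusted p below 0.05 in edgeR's quasi-likelihood test with Benjamini-Hochberg adjustment over all tested genes. That is 47.5% of 552 members, beside 43.4% of all 21182 tested genes (22.2% higher and 21.2% lower) and 43.3% of the 20630 arm genes tested. The spread between replicates was small, with a common biological coefficient of variation of 1.99%, and 207 of the 262 calls were below 1.5-fold. Whether samples of 1 group grew separately is not in the labels, so these p-values reflect the spread between samples alone, which may be technical. The median log2 fold change was -0.03 over the tested members (quartiles -0.15 and 0.13) and 0.00 over arm genes (quartiles -0.11 and 0.14). Scaling by library totals in place of TMM gave 167 higher and 98 lower members, so the balance of small changes rests on the scaling. The values of the groups did not overlap for 55.8% of the tested members, beside 50.3% of all tested genes.

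Changes of at least 2-fold were mostly increases and mostly in weakly expressed genes. There were 22 higher and 7 lower members of this size, 5.25% of those tested, beside 2.95% of all tested genes (2.51% higher and 0.439% lower) and 2.89% of arm genes. Of the 22, 16 were protein-coding, 6 belonged to other classes, and 6 were annotated only as uncharacterized proteins. All 29 had no overlap between the groups, which a call at this size favours, and the share among arm genes of this size was not taken. The most abundant of the 29 averaged 38.7 CPM over the 6 libraries. Below 1 CPM, 21.0% of 62 members changed by at least 2-fold, against 14.2% of 1905 arm genes, and from 1 to 10 CPM it was 9.03% of 155 members, against 4.0% of 6300. Between 10 and 100 CPM the shares were 0.730% of 274 members and 0.628% of 10671 arm genes. Of the members tested, 9 reached the filter in mutant libraries alone and 4 in Col-0 libraries alone. Passing in this way favours a difference without requiring one, as 3 of the 4 in Col-0 libraries alone were called. Such genes make up 9 of the 22 higher and 2 of the 7 lower members. On the arms they make up 118 of 510 higher and 13 of 86 lower genes of this size. They were kept in every count at 2-fold, also by window, by family and for the SOG1 letters. The differences between members and arm genes are given as a description and were not tested.

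**Figure D1:**
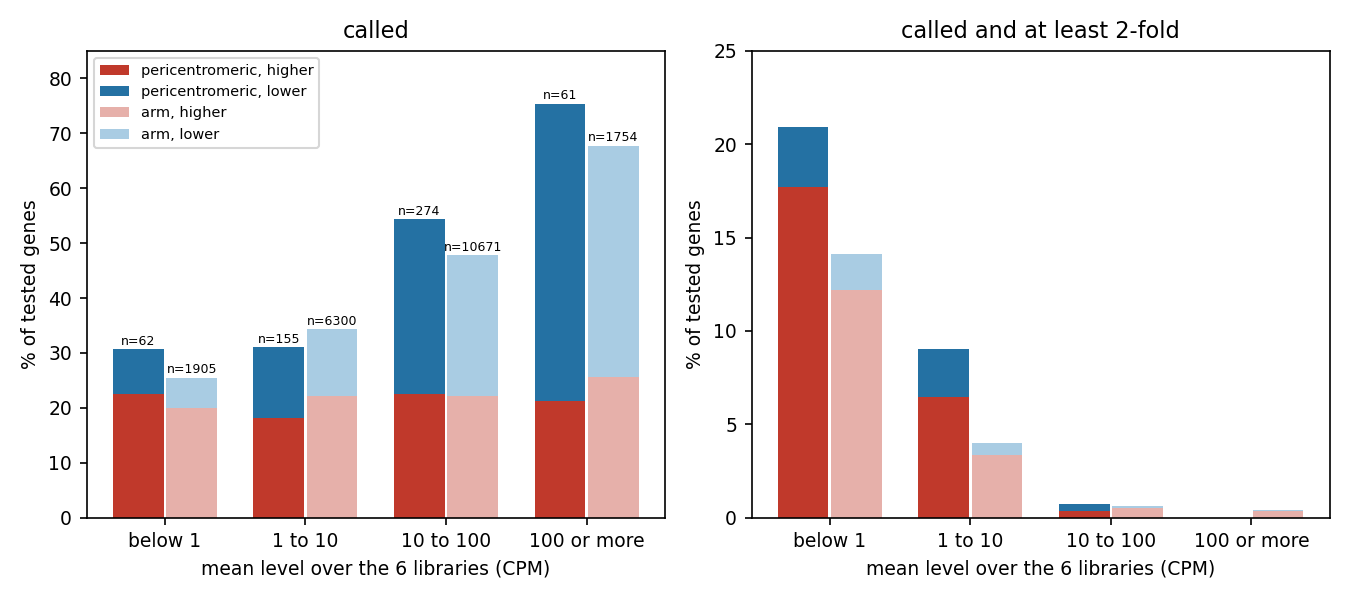
Share of tested genes (%) called in the comparison of zdp-1 ape2-2 with Col-0 (left) and called with at least 2-fold change (right), by mean level over the 6 libraries in CPM, for pericentromeric genes (dark bars) and arm genes (light bars), split into higher and lower in zdp-1 ape2-2, with the number of genes above each bar. Calls become more frequent with level while 2-fold changes are concentrated below 10 CPM in both sets.

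Higher and lower members were called in all 5 windows. On chromosome 3, 26 of 83 tested members were higher and 20 lower, 7 of the higher ones by at least 2-fold. That is 55.4% called and 8.43% higher by at least 2-fold, beside 42.9% and 2.52% on the arms of that chromosome. On chromosome 4 it was 33 higher and 29 lower of 141, with 6 higher by at least 2-fold, and on chromosome 1 it was 25 higher and 40 lower of 113, again with 6 higher by at least 2-fold. The window of chromosome 2 had 18 higher and 28 lower of 111, and that of chromosome 5 had 15 higher and 28 lower of 104, with 2 and 1 members higher by at least 2-fold. The shares called were 57.5%, 41.4%, 44.0% and 41.3% in the windows of chromosomes 1, 2, 4 and 5, beside 43.1%, 43.2%, 44.4% and 43.3% on their arms. The shares higher by at least 2-fold were 5.31%, 1.80%, 4.26% and 0.962% in these windows, beside 2.46%, 2.24%, 2.74% and 2.42% on their arms, and none of these differences was tested. With library totals as the scale, higher members outnumbered lower ones in every window, 35 to 12 on chromosome 3 and 27 to 23 on chromosome 5. Tested genes were unevenly spread inside the windows. On chromosome 1 none of the 9 genes from 14.5 to 15.0 Mb and of the 5 genes from 15.0 to 15.5 Mb was tested, whereas on chromosome 3 the last 0.5 Mb, from 15.5 to 16 Mb, held 37 of the 83 tested members.

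**Figure D2:**
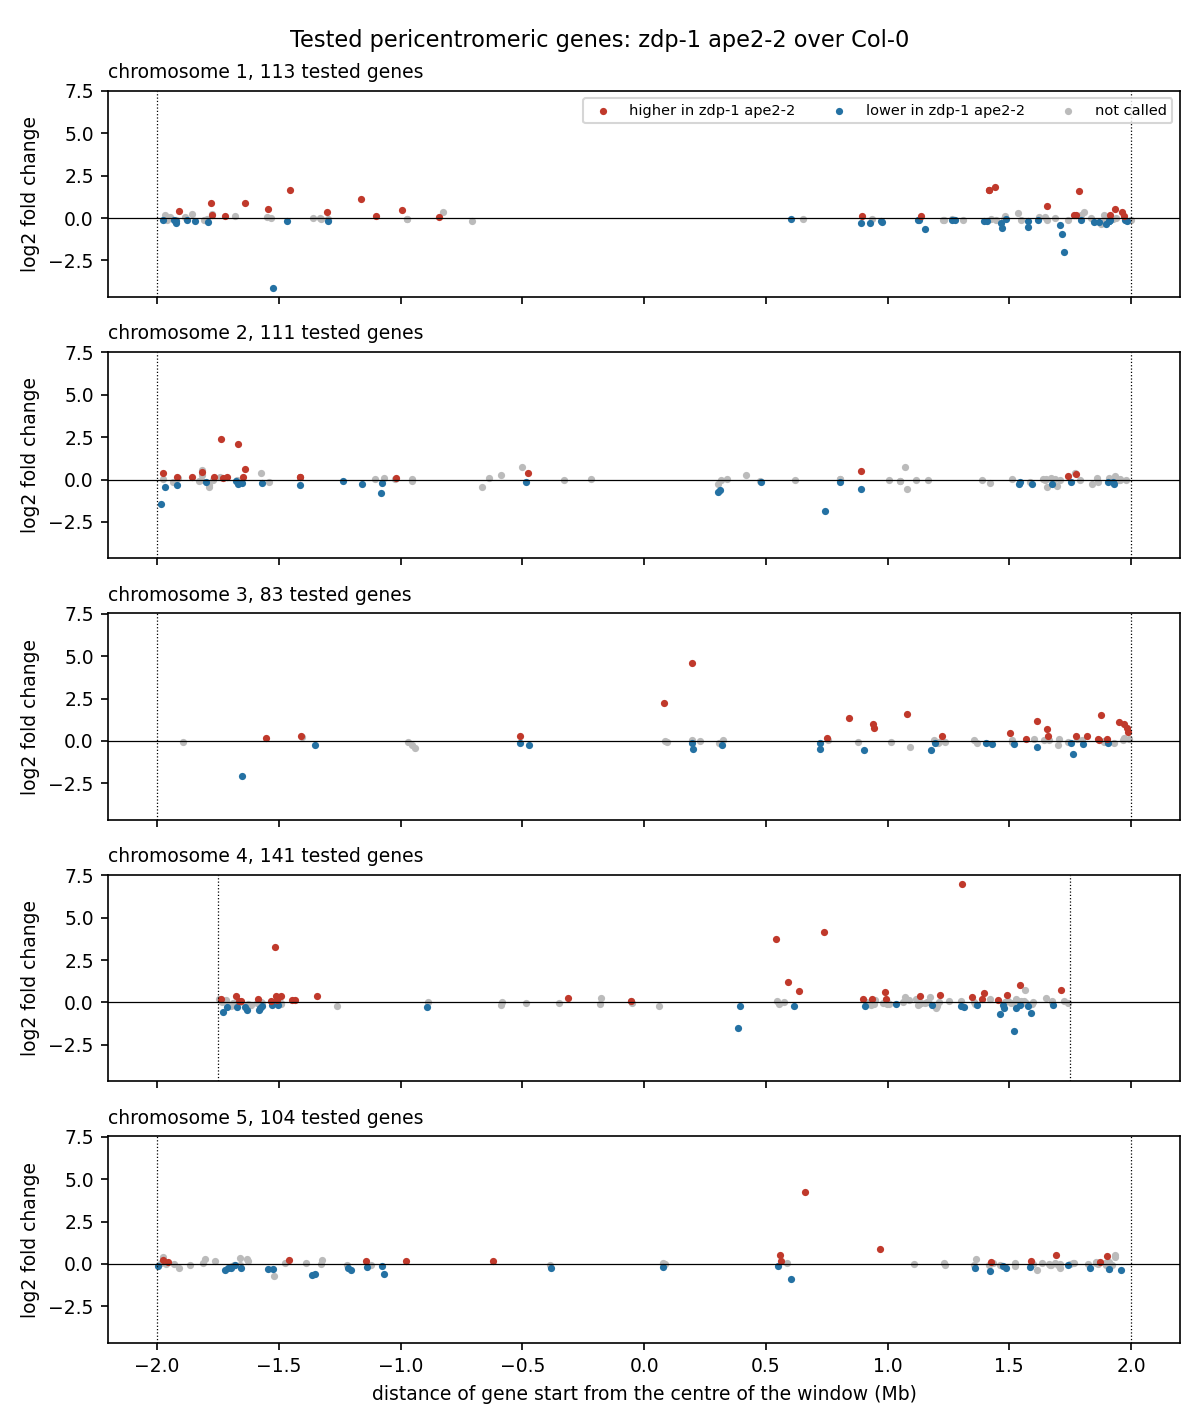
Log2 fold change of zdp-1 ape2-2 over Col-0 (y axis) for each tested pericentromeric gene against the distance of its start from the centre of its window in Mb (x axis), 1 panel per chromosome, with dotted lines at the window edges. Calls of both directions lie side by side along each window, and the points above 2.5 belong to genes with at most 19 counts in the Col-0 libraries together, such as AT4G08691, whose fitted value of 6.97 rests on no Col-0 count.

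The member with the largest change above 1 CPM lies beside ribosomal RNA genes. AT3G41762 (chromosome 3, 14195447 to 14196865, minus strand), annotated as an uncharacterized protein, had 2.62, 3.0 and 2.40 CPM in zdp-1 ape2-2, against 0.166, 0.110 and 0.0328 CPM in Col-0. The mutant libraries held 305 counts together and the Col-0 libraries 11, a log2 fold change of 4.60 ± 0.27 (edgeR adjusted p = 3.36e-17) and a ratio of 25.1 with a 95% counting interval of 13.8 to 50.7. With 6, 4 and 1 counts in Col-0, AT3G41762 reached the filter on low counts in the mutant libraries alone. It was thus tested only because the mutant group was high, which favours a call. All of its exon bases have a copy elsewhere, 42.1% lie under exons of other genes, and how the counting split such reads is not given. Its copy is in AT2G01008 (chromosome 2, 1025 to 3173), outside the windows at the tip of that chromosome, with 11.0, 11.0 and 10.9 CPM in zdp-1 ape2-2 and 0.360, 0.329 and 0.328 CPM in Col-0.

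Both genes stand next to an 18S ribosomal RNA gene, with 811 bases between AT3G41762 and AT3G41768 and 532 bases between AT2G01008 and AT2G01010. The neighbours were picked for description after the values of AT3G41762 were seen. AT3G41768, itself a pericentromeric gene, had 243, 278 and 273 CPM in zdp-1 ape2-2 and 278, 315 and 279 CPM in Col-0, a log2 fold change of -0.14 ± 0.04 (edgeR adjusted p = 0.00149) that lost its call with library totals as the scale (-0.08 ± 0.04, adjusted p = 0.0845). AT2G01010 had 7.08, 6.52 and 7.5 CPM in zdp-1 ape2-2 and 5.93, 6.17 and 4.95 CPM in Col-0, a log2 fold change of 0.30 ± 0.09 (edgeR adjusted p = 0.00445). The next gene, AT2G01020, annotated as a 5S ribosomal RNA, had 3.33, 2.97 and 3.51 CPM in zdp-1 ape2-2 and 2.60, 2.17 and 2.33 CPM in Col-0 (0.47 ± 0.12, edgeR adjusted p = 0.00176). All exon bases of these ribosomal RNA genes have a copy elsewhere, at 99.89% identity for both 18S genes. How the counting split reads between the copies is not given, so the opposite directions of the 18S genes are uncertain. AT3G41979, annotated as a 5.8S ribosomal RNA and 164 bases long like AT2G01020, was at 0 in all libraries. However, 100% of its exon bases lie under another gene, against 0% for AT2G01020. How the counting treated reads under 2 genes is not given, so the 0 may not mean that RNA was absent.

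Non-coding and uncharacterized genes followed. AT2G05914, a long non-coding RNA gene on chromosome 2, had 1.84, 1.84 and 1.48 CPM in zdp-1 ape2-2, against 0.222, 0.356 and 0.393 CPM in Col-0 (log2 fold change 2.41 ± 0.23). AT2G06002, a non-coding RNA gene of the same window, had 2.94, 4.10 and 3.06 CPM in zdp-1 ape2-2, against 0.859, 0.823 and 0.656 CPM in Col-0 (2.10 ± 0.17). Neither has a copy elsewhere, and 24.7% of the exon bases of AT2G05914 lie under another gene. The lowest mutant library was above the highest Col-0 library in both, which the rule for naming them required. AT1G43605 and its opposite-strand neighbour AT1G07167, a long non-coding RNA gene, had log2 fold changes of 1.68 ± 0.14 and 1.66 ± 0.19. Their ends share 39 bases, 5.49% of AT1G07167, and reads over that stretch need a strand setting to be told apart. In all, 272 exon bases of AT1G43605 (22.7%) lie under other genes, and copies cover 39.9% of the exon bases of AT1G07167. AT3G44120, an F-box gene with copies over 98.7% of its exons, AT3G42725, a putative membrane lipoprotein gene, and AT4G07995, an uncharacterized gene, had log2 fold changes of 1.54 ± 0.20, 1.35 ± 0.12 and 1.2 ± 0.14.

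**Figure D3:**
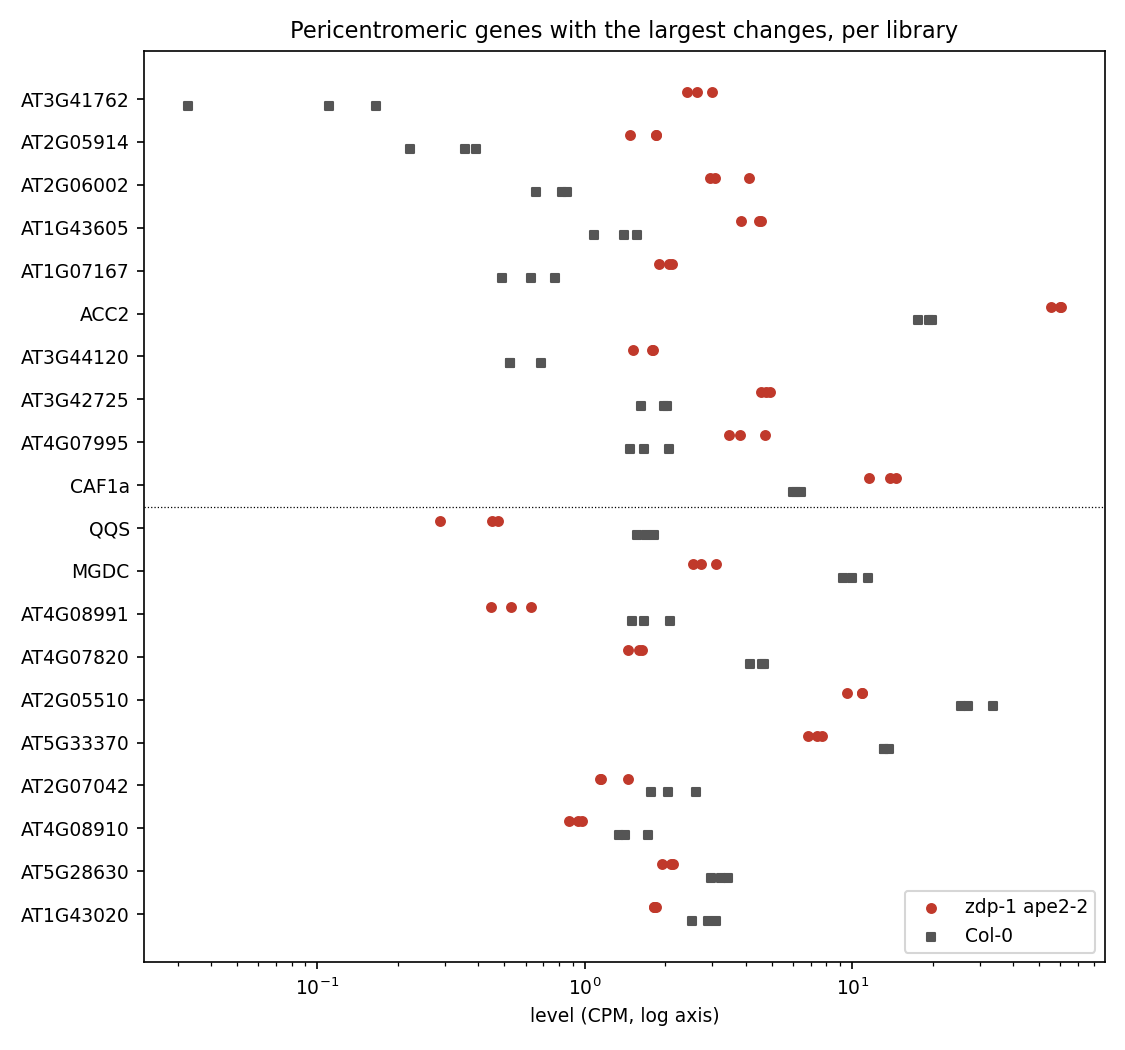
Level per library in CPM (log axis) of the 10 higher (above the dotted line) and 10 lower (below it) called pericentromeric genes with the largest log2 fold changes (mean level 1 CPM or above, groups not overlapping), for zdp-1 ape2-2 (circles) and Col-0 (squares), 3 libraries each. The gap between groups is widest for AT3G41762, and ACC2 is the most abundant of the 20.

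ACC2 was the strongest increase among well expressed members. ACC2 (AT1G36180, chromosome 1, 13545965 to 13558600) encodes a multifunctional acetyl-CoA carboxylase, the enzyme type that makes malonyl-CoA for fatty acid synthesis, targeted to plastids. It had 55.5, 59.7 and 60.4 CPM in zdp-1 ape2-2, against 19.3, 17.6 and 19.8 CPM in Col-0, a log2 fold change of 1.63 ± 0.04 and the smallest adjusted p of all members (edgeR, 1.34e-28). Its tandem neighbour ACC1 (AT1G36160), which encodes the cytosolic enzyme, averaged 257 ± 6.80 CPM in zdp-1 ape2-2 and 293 ± 5.58 CPM in Col-0 (SD, n = 3 each), a log2 fold change of -0.19 ± 0.02. The pair thus changed in opposite directions, although copies of at least 90% identity cover 49.7% of the exon bases of ACC2 and 50.3% of those of ACC1, so part of the reads could be assigned to either.

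Near the upper edge of the chromosome 3 window, a cluster of nitrilase genes rose in part. Nitrilases of this group can convert indole-3-acetonitrile to the auxin indole-3-acetic acid. NIT1 (AT3G44310) had 870, 891 and 912 CPM in zdp-1 ape2-2, against 623, 618 and 634 CPM in Col-0 (log2 fold change 0.51 ± 0.02, edgeR adjusted p = 1.58e-21). NIT2 (AT3G44300) had 47.8, 49.4 and 45.6 CPM in zdp-1 ape2-2, against 28.5, 27.8 and 27.7 CPM in Col-0 (0.76 ± 0.04, edgeR adjusted p = 2.01e-19). NIT3 (AT3G44320), the last gene before the edge, had 26.4, 25.6 and 25.9 CPM in zdp-1 ape2-2, against 25.1, 23.2 and 24.8 CPM in Col-0, and was not called (0.09 ± 0.04, edgeR adjusted p = 0.0792; 0.16 ± 0.04 and 0.00303 with library totals). Copies of at least 90% identity cover 29.4%, 47.4% and 19.4% of the exon bases of NIT1, NIT2 and NIT3. The same stretch holds CAF1a (AT3G44260), a deadenylase gene that shortens mRNA tails, with 11.6, 14.6 and 13.8 CPM in zdp-1 ape2-2 and 5.98, 6.14 and 6.43 CPM in Col-0 (1.11 ± 0.08).

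Other called members with known roles were OPR3, a reductase of jasmonate synthesis, with 52.5 ± 1.37 CPM in zdp-1 ape2-2 and 34.5 ± 1.86 CPM in Col-0 (SD, n = 3 each; 0.60 ± 0.04), and the arginase gene ARGAH2 (0.53 ± 0.03). The sucrose synthase gene SUS4 was lower (-0.51 ± 0.03), as was CRY1, the blue light receptor cryptochrome 1 (-0.17 ± 0.02). They were picked as examples with their values in view.

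The largest decreases above 1 CPM were those of QQS and MGDC. QQS (AT3G30720, chromosome 3, 12349047 to 12349933), a small species-specific gene that affects the allocation of carbon and nitrogen and whose expression is known to vary with DNA methylation at its start, had 0.288, 0.473 and 0.449 CPM in zdp-1 ape2-2, against 1.69, 1.81 and 1.57 CPM in Col-0. Its log2 fold change was -2.06 ± 0.22 (edgeR adjusted p = 2.63e-10), on 46 counts in the mutant libraries and 175 in those of Col-0. MGDC (AT2G11810, chromosome 2, 4743162 to 4746813), which encodes a monogalactosyldiacylglycerol synthase known from membrane remodelling under phosphate starvation, had 3.09, 2.73 and 2.54 CPM in zdp-1 ape2-2, against 10, 9.27 and 11.5 CPM in Col-0 (-1.87 ± 0.10, edgeR adjusted p = 2.70e-19). AT4G07820, which encodes a protein of the CAP superfamily of pathogenesis-related proteins, had 1.63, 1.45 and 1.59 CPM in zdp-1 ape2-2, against 4.15, 4.66 and 4.59 CPM in Col-0 (-1.52 ± 0.12). In all of these the highest mutant library was below the lowest Col-0 library, which the rule for naming them required. AT4G08991, a transcribed pseudogene with copies over 73.3% of its exons, had a log2 fold change of -1.71 ± 0.21. The remaining 5 of the 10 lower genes, besides AT2G05510 below, were AT5G33370 (a GDSL lipase gene), AT2G07042, AT4G08910, AT5G28630 and AT1G43020, from -0.87 ± 0.07 to -0.63 ± 0.13.

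Glycine-rich protein genes at the lower edge of the chromosome 2 window did not move together. AT2G05510, the first tested gene inside that edge, had 9.57, 10.9 and 10.9 CPM in zdp-1 ape2-2, against 25.5, 27.2 and 33.6 CPM in Col-0 (-1.45 ± 0.07, edgeR adjusted p = 4.98e-20). GRP-3 (AT2G05520) had 317, 357 and 340 CPM in zdp-1 ape2-2, against 247, 240 and 303 CPM in Col-0 (0.36 ± 0.04, edgeR adjusted p = 7.85e-09). The groups did not overlap in either gene, which the naming rule required for AT2G05510, and Col-0 replicate C lay nearest to the mutant values of GRP-3. AT2G05540 averaged 13.7 ± 0.723 CPM in zdp-1 ape2-2 and 18.4 ± 1.43 CPM in Col-0 (SD, n = 3 each; -0.43 ± 0.06). The nearest tested gene outside the edge, AT2G05440, also encodes a glycine-rich protein and had a log2 fold change of -0.50. At the other 9 edges, the nearest tested genes ran from -0.34 to 0.18 inside and from -0.31 to 0.19 outside.

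The most abundant members per kilobase were genes of photosynthesis, plastid metabolism and protein turnover, and their changes were small. PSBX, which encodes a small subunit of photosystem II, had 1177, 1235 and 1226 CPM in zdp-1 ape2-2, against 1496, 1501 and 1530 CPM in Col-0 (-0.31 ± 0.02). PSBQ-2, for a subunit of the oxygen-evolving complex, had 1418, 1435 and 1518 CPM in zdp-1 ape2-2, against 1854, 1827 and 1910 CPM in Col-0 (-0.35 ± 0.02). GAPB, a glyceraldehyde-3-phosphate dehydrogenase of the Calvin cycle, and GS2, the plastid glutamine synthetase, had log2 fold changes of -0.14 ± 0.02 and -0.24 ± 0.02. The polyubiquitin gene UBQ10 was higher (0.08 ± 0.02), and 44.5% of its exon bases have copies. AT2G10940, annotated as a lipid-transfer protein gene, had 746, 729 and 732 CPM in zdp-1 ape2-2, against 1117, 1126 and 1076 CPM in Col-0 (-0.59 ± 0.02, edgeR adjusted p = 1.23e-23). The groups were apart in each of these genes, and the shoot marker sum was also lower in the mutant, as given above. Of the 61 tested members at 100 CPM or more, 13 were higher and 33 lower, beside 449 and 738 of 1754 arm genes, and with library totals the counts were 22 and 24, beside 744 and 527.

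The summed share of the members in the libraries was slightly lower in the mutant, and the groups did not overlap. Pericentromeric genes took 3.48%, 3.47% and 3.49% of all counts in zdp-1 ape2-2, against 3.53%, 3.53% and 3.54% in Col-0. Without the 10 most abundant members the order was reversed, with 2.25%, 2.25% and 2.26% in zdp-1 ape2-2 and 2.18%, 2.18% and 2.19% in Col-0. The direction of the total thus depends on 10 of 1852 genes.

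Members with traces of RNA were counted more often in the mutant. At least 1 count was recorded for 810, 813 and 818 members in zdp-1 ape2-2, against 751, 742 and 729 in Col-0, and for replicates A and B the libraries of both genotypes were of about the same depth. The 1300 members left untested summed to 22.2, 24.5 and 22.5 CPM in zdp-1 ape2-2, against 14.5, 15.7 and 15.9 in Col-0, with means of 23.1 ± 1.25 CPM in zdp-1 ape2-2 and 15.4 ± 0.744 CPM in Col-0 (SD, n = 3 each) and a ratio of 1.5. Untested arm genes summed to 304, 317 and 302 CPM in zdp-1 ape2-2, against 253, 262 and 250 in Col-0, a ratio of 1.21. The groups did not overlap in either set, 3 against 3 libraries cannot go below p = 0.1 in an exact two-sided permutation test, and the difference between the ratios was not tested. Untested members with no copy elsewhere gave 14.0 ± 1.02 CPM in zdp-1 ape2-2 and 9.39 ± 0.512 in Col-0, a ratio of 1.49. Untested arm genes with no copy gave 234 ± 6.34 CPM in zdp-1 ape2-2 and 196 ± 5.36 in Col-0, a ratio of 1.19.

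**Figure D4:**
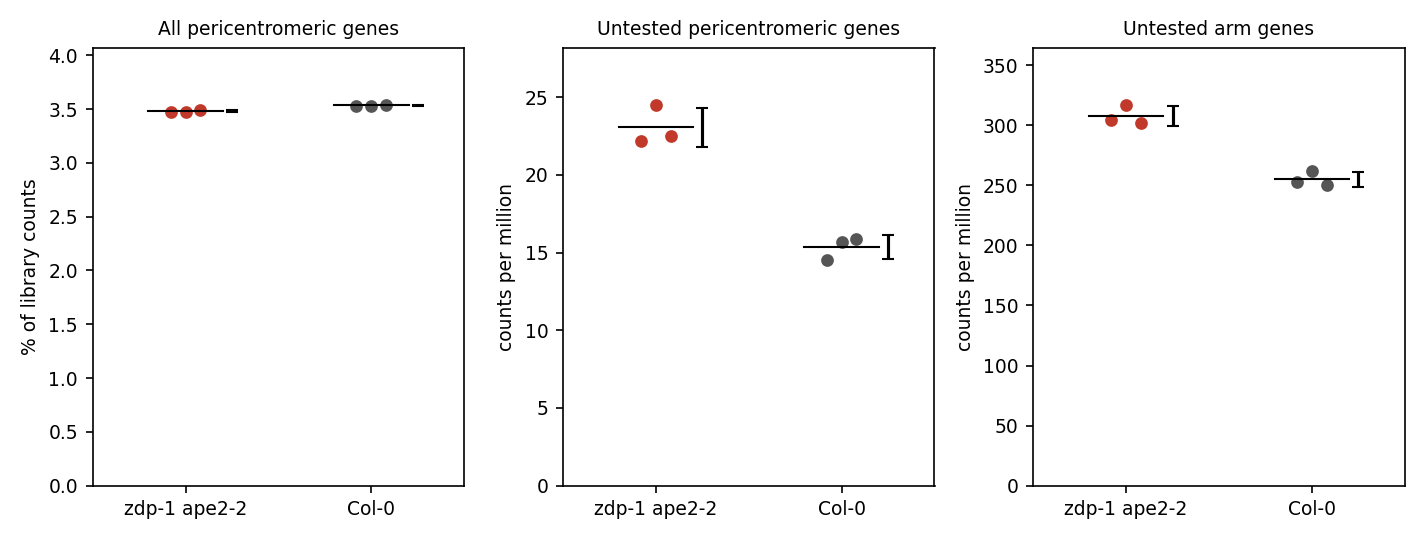
Values per library (points) with the group mean (line) and SD (bar beside it, n = 3), for zdp-1 ape2-2 and Col-0: share of library counts in all pericentromeric genes (%), and summed CPM of untested pericentromeric genes and of untested arm genes. The share differs by -0.0539 percentage points (zdp-1 ape2-2 minus Col-0), while the untested sums are higher in zdp-1 ape2-2 in both regions.

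In all, 146 members (7.88%) had counts in zdp-1 ape2-2 libraries and none in Col-0, against 53 (2.86%) with counts in Col-0 alone. For arm genes the shares were 3.26% and 1.82%. AT4G08691, an uncharacterized gene on chromosome 4, had 14, 16 and 19 counts in zdp-1 ape2-2 and none in Col-0. Against a floor of 3 counts over the Col-0 group its ratio was 14.8, with the mutant counts taken as exact. AT5G35660, a glycine-rich protein gene that was not tested, had 7, 22 and 6 counts in zdp-1 ape2-2 and none in Col-0, a ratio of 10.5 on the same floor. AT5G33390, another glycine-rich protein gene, had 27, 26 and 18 counts in zdp-1 ape2-2 and 1 in each Col-0 library, a ratio of 21.4 with a counting interval of 7.03 to 106. In AT5G35660 replicate B holds most of the counts, whereas the other genes were counted evenly. Further members with few Col-0 counts were AT4G08093, a transcribed pseudogene (202 counts in zdp-1 ape2-2 and 10 in Col-0), AT4G07940 (156 counts in zdp-1 ape2-2 and 10 in Col-0, with copies over 62.7% of its exons) and AT4G05380 (203 counts in zdp-1 ape2-2 and 19 in Col-0, no copies). The reverse was seen for AT1G06957, a long non-coding RNA gene with 7 counts in zdp-1 ape2-2 and 114 in Col-0. These 4 averaged below 1 CPM over the 6 libraries and were chosen after their values were seen.

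Gene classes and families gave no uniform direction. Of 18 tested long non-coding RNA genes, 4 were higher and 3 lower, and of 12 transcribed pseudogenes, 2 were higher and 3 lower. The shares called were 38.9% and 41.7%, beside 14.3% of 259 long non-coding RNA genes and 31.5% of 124 transcribed pseudogenes on the arms. Among 25 kinase genes, 8 were higher and 6 lower, among 20 oxidoreductase genes, 7 and 6, and among 18 transporter genes, 4 and 5. These are 56%, 65% and 50% called, beside 46%, 52.5% and 45.5% of the same families on the arms. Of 11 genes for pentatricopeptide or tetratricopeptide repeat proteins, 1 was called (9.09%), and it was lower, beside 30.2% called on the arms. Genes for hypothetical or unknown proteins numbered 55, with 8 higher and 10 lower, and 7 of the 8 higher ones rose by at least 2-fold. That is 32.7% called and 12.7% higher by at least 2-fold, beside 36.5% and 3.38% of 1980 such genes on the arms. The differences between members and arm genes of a class or family were not tested. Transposon-related proteins accounted for 34 members, of which 2 were tested and 1 was lower, while transposable element genes as an annotated class were not analysed here.

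A stretch of chromosome 2 from 3.2 to 3.5 Mb holds an insertion of mitochondrial DNA. It contained 148 genes, 142 of which have a mitochondrial copy over at least 90% of their exon bases, and 74 were at 0 in all libraries. In the edgeR test 4 could be tested and 0 were called, with 1 at an unadjusted p below 0.05, and DESeq2 called 0 of 28. Summed levels were 6.29 ± 0.221 CPM in zdp-1 ape2-2 and 4.70 ± 0.252 CPM in Col-0 (SD, n = 3 each), and reads from the mitochondrial genome cannot be told apart from reads of the insertion.

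Neighbouring members called in the same direction formed 13 runs of at least 3 genes, 7 higher and 6 lower, with 41 genes or 7.43% of those tested. Arm genes formed 416 runs with 6.79% of those tested. The higher runs included NAC060, NIT2 and NIT1 on chromosome 3 and ACS11, AT4G08093 and KNAT1 on chromosome 4. The lower ones included AT1G44000, AT1G44020 and AT1G44030 on chromosome 1, the last 2 of which encode cysteine/histidine-rich C1 domain proteins and have copies over 74.9% and 78.1% of their exons.

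Genes of a list on heterochromatin and DNA methylation lie outside the windows and changed in both directions. The list also holds ROS1 and IBM1, which act against DNA methylation and had the largest decreases. The other genes called lower ran from -0.20 to -0.14, and those called higher from 0.17 to 0.54. All 29 on the list were tested. In zdp-1 ape2-2, 11 were higher and 7 lower, 62.1% called (37.9% higher and 24.1% lower) beside 43.4% of all tested genes (22.2% higher and 21.2% lower). The median over the 29 log2 fold changes was 0.06 (14 and 5, median 0.12, with library totals). ROS1, the DNA glycosylase gene of active demethylation, had 38.2, 35.9 and 36.5 CPM in zdp-1 ape2-2, against 76.4, 75 and 75.6 CPM in Col-0 (-1.04 ± 0.03, edgeR adjusted p = 6.02e-26). The maintenance methyltransferase gene MET1 had 115, 112 and 115 CPM in zdp-1 ape2-2, against 79.2, 79.1 and 80.7 CPM in Col-0 (0.52 ± 0.03). CMT3, which methylates CHG sites, VIM1, which binds methylated DNA, and DDM1 were higher by log2 fold changes of 0.45 ± 0.03, 0.33 ± 0.03 and 0.34 ± 0.04. IBM1, a histone demethylase gene that protects genes from CHG methylation, was lower (-0.65 ± 0.04), as was CMT2 (-0.20 ± 0.03). CENH3, the centromeric histone, was at 5.87 CPM in zdp-1 ape2-2 and 6.12 CPM in Col-0 and was not called (-0.06 ± 0.08). DNA methylation was not analysed here.

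**Figure D5:**
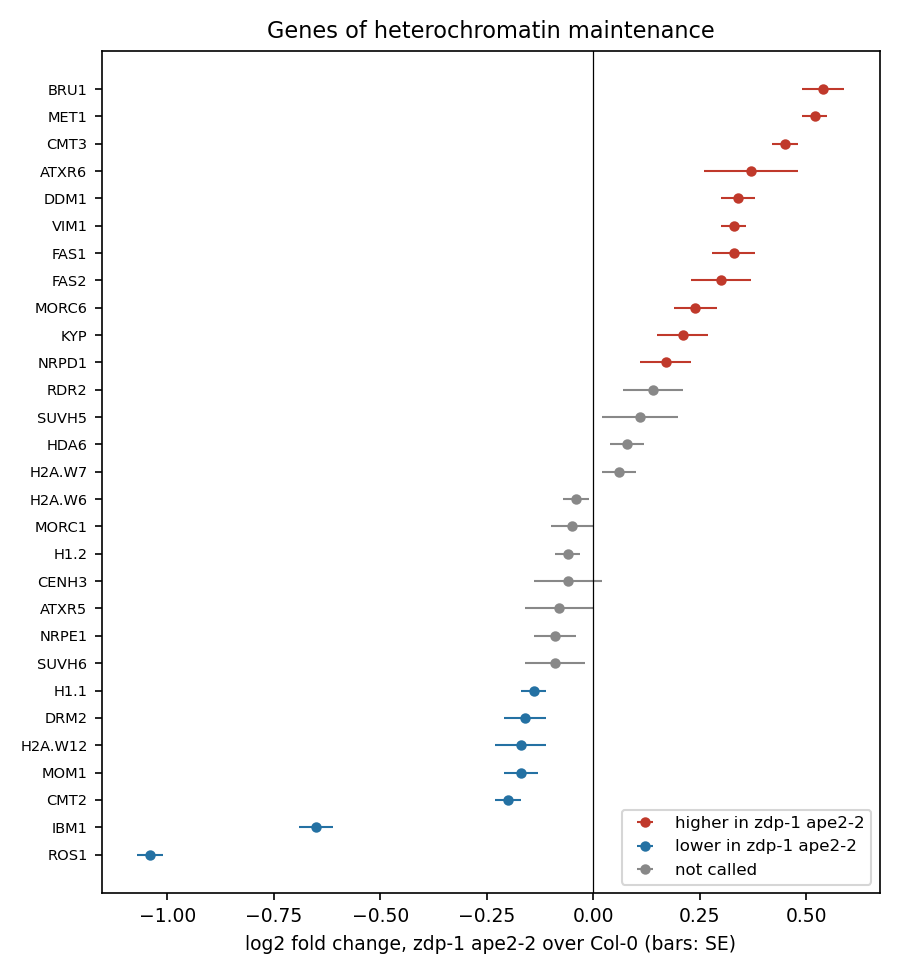
Log2 fold change of zdp-1 ape2-2 over Col-0 with its SE (x axis) for the 29 genes of the heterochromatin list (y axis, ordered by value), coloured by call. ROS1 at -1.04 is the lowest and BRU1 at 0.54 the highest.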

How the data were processed

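RNA-seq tables of 3 zdp-1 ape2-2 and 3 Col-0 samples were used, grouped by title and genotype label. The authors deposited 1 table of whole-number counts per gene and sample, not normalised. Reads were aligned with STAR to TAIR10, per the submitters' processing notes. Which tool counted the reads, whether it used strand and how it treated reads with several alignments are not given in the sources used here. Genes of the organelles and transposable element genes were not analysed here.

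Genes were tested with edgeR 4.0.16 in R 4.3.3: filterByExpr by genotype kept 21182 genes, scaling was by TMM, and the two-sided quasi-likelihood F test used all 6 samples and genotype as the only term. Calls were made at a Benjamini-Hochberg adjusted p below 0.05 over all tested genes, and the script was tested on simulated counts. CPM is a count scaled to a common library size with the TMM factors. The standard error of a log2 fold change is its size divided by the square root of F. At the depth of these libraries 1 count is worth 0.0262 to 0.0328 CPM. Intervals from counts (95%, exact) cover counting error only. A floor of 3 counts replaces a Col-0 group at 0, and ratios on that floor leave out the counting error of the mutant.

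The IDs of all 33489 genes were matched to RefSeq TAIR10.1, which gave symbols, classes and products, and 33309 had the same coordinates there (1843 of 1852 members). Start regions were read from that genome. Exons were searched against it, organelles included, with BLAST 2.17.0, and a copy is a hit elsewhere of at least 50 bases and 90% identity, a minimum lowered after a first, stricter search. Families were formed by words in the product names, and the word list for hypothetical proteins was widened after the product names were seen.

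Genes named were the 10 higher and 10 lower called members with the largest log2 fold change (mean level 1 CPM or above, groups not overlapping). To these came the 3 smallest p in each direction, the 5 most abundant per kilobase, up to 5 with at most 3 Col-0 and at least 30 mutant counts, the genes at window edges, and 5 genes of the heterochromatin list with the smallest p. The members, the lists and this rule were chosen with earlier results of these data known. Alternatives changed the scaling, the tool (DESeq2 1.42.0), the filter, the window edges, the members included, the replicate block and each library in turn.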

Additional observations from a re-analysis of the deposited data

How the results depend on the processing

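No cause of a changed value was tested beyond what its construction shows. Over 12 refits with another scaling, tool, filter, block or without 1 library, 28 or 29 of the 29 members at 2-fold or more were still called in the same direction. For 35 tested genes of the naming rule, all 420 alternative values kept their direction and their side of the threshold. Most of these were picked for a large change or a small p, which favours that. Genes named only for a window edge, as neighbours or as examples were not among the 35. With library totals NIT3 gained a call and AT3G41768 lost its call, as given above. The median log2 fold change of the tested members, -0.03, was 0.04 with library totals alone (all tested genes: 0.07), -0.01 with DESeq2, and 0.04 with no filter beyond 1 count. It was -0.04 with window edges 0.5 Mb inwards, -0.01 with edges outwards, and -0.03 to -0.02 without single libraries. The 29 members at 2-fold or more became 44 with DESeq2 and 59 with no filter, where more members are tested (698 and 982), 15 with edges inwards and 51 with edges outwards. The 262 called members became 111 of 232 with edges inwards and 482 of 1057 with edges outwards, by the number of genes in the window. The share of library counts, lower by 0.0539 percentage points in zdp-1 ape2-2 (a difference of -0.0539), was higher by 0.0690 without the 10 most abundant members, which took 1.22% to 1.23% of counts in zdp-1 ape2-2 and 1.35% in Col-0. Higher genes made up 44.7% of called members and 51.3% of called arm genes, and 63.0% and 72.2% with library totals alone.

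Without single libraries there were 238 to 252 called members, 30 to 33 at 2-fold or more, 7970 to 8369 called arm genes, a ratio of 1.45 to 1.53 for untested members and a share difference of -0.0588 to -0.0509. The alternatives for the untested-member ratio, the share without single libraries and the counts without copied members were chosen after seeing the data. Replicate letters did not pair the samples: correlations of the deviations of same-letter samples were -0.00688, 0.0656 and 0.0131. With the replicate block 269 members were called, 29 of them at 2-fold or more, with a median of -0.03, and 9181 arm genes. A count of 0 in a library allows a true value of up to 3 counts there, and differences among the 1300 untested members were not tested gene by gene.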
